A study of Mus musculus with 2 samples.

Results

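The 8 genes described here encode the MHC class I molecule of the mouse: the 7 heavy chains H2-K1, H2-D1, H2-Q4, H2-Q6, H2-Q7, H2-T22 and H2-T23, and the light chain B2m. They were taken by name from the 55357 features counted in single cells, and UMIs of all 8 were found in both libraries. The cells were live CD45-positive cells sorted from lung metastases of B16F10, a mouse melanoma line, in C57 mice. There was 1 library from mice whose tumour cells carry IRF7 with the change C435A and 1 from mice whose tumour cells carry wild-type IRF7, here the C435A library and the WT library. IRF7 is a transcription factor of the type I interferon response, and the study's title names its S-nitrosylation in melanoma. The immune cells of both libraries are host cells, and the genotype belongs to the tumour cells. The number of mice behind each library is not given in the sources used here. A replicate check needs more than the 1 library each group has, so no test was made, and all intervals below are 95% intervals that cover counting error only.

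Class I molecules carry short peptides from inside the cell to its surface, where CD8 T cells read them. The heavy chain binds the peptide and needs B2m to fold and leave the endoplasmic reticulum, and NK cells sense class I through inhibitory receptors. H2-K1 and H2-D1 are the classical heavy chains, while the Q and T chains are less variable and more specialised. Type I and type II interferons raise transcription of most class I genes, and B16 cells are known for little class I at their surface until interferon reaches them.

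The heavy chain genes lie within the H2 complex, from chr17:33996017-34000347 for H2-K1 to chr17:36037128-36042747 for H2-T22, and B2m lies apart at chr2:122147686-122153083 (build GRCm38). Stretches of 60 bases upstream of the gene starts, from RefSeq on GRCm38.p6 and read 5′ to 3′ on the strand of each gene, are shown because H2-K1, H2-D1, H2-Q6 and H2-Q7 share them almost letter for letter, with 3 other members for comparison. Capitals mark the kappa B motif or its nearest counterpart at the left and the interferon response core, GAANNGAAA, at the right, or in H2-T22 and B2m a longer form of the core with 1 more A before the variable pair. In H2-K1, H2-D1, the H2-Q genes and H2-T22 the interferon core reads on the opposite strand. The kappa B motif searched for is the left-hand run of capitals in H2-K1, and its shorter form is that run in H2-Q7.
H2-K1 chr17:34000411-34000470: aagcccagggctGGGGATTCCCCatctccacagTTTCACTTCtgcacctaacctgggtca
H2-D1 chr17:35262911-35262970: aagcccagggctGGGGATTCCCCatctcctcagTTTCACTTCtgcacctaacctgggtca
H2-Q6 chr17:35424665-35424724: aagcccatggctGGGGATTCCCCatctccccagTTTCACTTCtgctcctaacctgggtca
H2-Q7 chr17:35439010-35439069: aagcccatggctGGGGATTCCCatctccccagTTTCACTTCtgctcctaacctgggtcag
H2-Q4 chr17:35379431-35379490: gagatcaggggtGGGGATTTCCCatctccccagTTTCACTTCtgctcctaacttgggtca
H2-T22 chr17:36042910-36042969: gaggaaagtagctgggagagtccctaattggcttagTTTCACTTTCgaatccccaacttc
B2m chr2:122147512-122147571: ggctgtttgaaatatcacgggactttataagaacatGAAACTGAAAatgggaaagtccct

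The stretch of H2-K1 matched that of H2-D1 at 98.3% of aligned positions, that of H2-Q7 at 91.8% and that of H2-Q4 at 86.7%, and H2-Q6 matched H2-Q7 at 96.7%. Both strands of the promoter, from 250 bases before to 50 after the gene start, were searched in 27025 genes. The kappa B motif was in the promoters of 3 of the 8 members and in 0.0222% of all promoters. The shorter form, which lies inside it and is also found in H2-Q7, was in 4 members and in 0.104% of all promoters. GAANNGAAA was in 5 members against 7.56% of all promoters, the longer form of the core was in the other 3 (H2-T22, H2-T23 and B2m) against 3.49%, and CCAAT was in all 8 against 37.9%. The left-hand capitals of H2-Q4 differ from the letters searched for and were not a match. These matches describe the letters of the windows and nothing more. The letters of the RefSeq promoters are reference sequence, not that of the mice or of the B16F10 line.

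In all, 10373 barcodes with 59615672 UMIs were counted for the C435A library, and 10156 barcodes with 54934397 UMIs for the WT library. After filtering and removal of likely doublets 9427 and 9199 cells were kept in that order, with medians of 3200.0 UMIs per cell in the C435A library and 2684.0 UMIs in the WT library, and 23 barcodes were found in both. Cells were put in lineages and then classes by the UMIs of marker genes, none of them a class I gene. A lineage was given to 91.6% of the kept cells in the C435A library and 91.8% in the WT library. Some phagocytes, whose further markers tied or were too few, were left without a class and were not compared. Of the 8636 cells with a lineage in the C435A library and 8443 in the WT library, 691 and 723 in that order had only the fewest distinct markers the gate allows. Although the labels name the cell type as melanoma cell, 65 cells of the C435A library and 128 of the WT library passed the melanoma gate, and the rest were T, NK, B, plasma and myeloid cells. Melanoma markers made up 753 CPM of the C435A library and 1904 CPM of the WT library, and erythroid markers 164 and 582 CPM in the same order. Only counts per gene were used, which do not show the changed codon of IRF7, so the genotype could not be checked. Melanoma-gated cells held 4 Irf7 UMIs in the C435A library and 6 in the WT library.

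Class I transcripts were found in every class, and their order across classes was much the same in both libraries. Levels are given as CPM, the UMIs of the gene in every 1000000 UMIs of the class. A UMI stands for 1 transcript end, so no scaling by gene length was made. The summed 7 heavy chains were highest in NK cells, at 10754 CPM in the C435A library and 8929 CPM in the WT library, and in mature dendritic cells, at 10708 CPM in the C435A library and 8961 CPM in the WT library. The counting intervals of these neighbours overlap in both libraries. Melanoma-gated cells were lowest, at 586 CPM in the C435A library and 362 CPM in the WT library. These levels are relative to all UMIs of a class, and counts per cell have another order. The median NK cell held 22 heavy-chain UMIs in the C435A library and 19 in the WT library. For CD8 T cells the medians were 33 and 22 in that order, and for mature dendritic cells 79.5 and 78. Of the 5 classes with the highest sums, 4 were shared by the libraries (NK cells, mature dendritic cells, plasmacytoid dendritic cells and regulatory T cells).

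**Figure D1:**
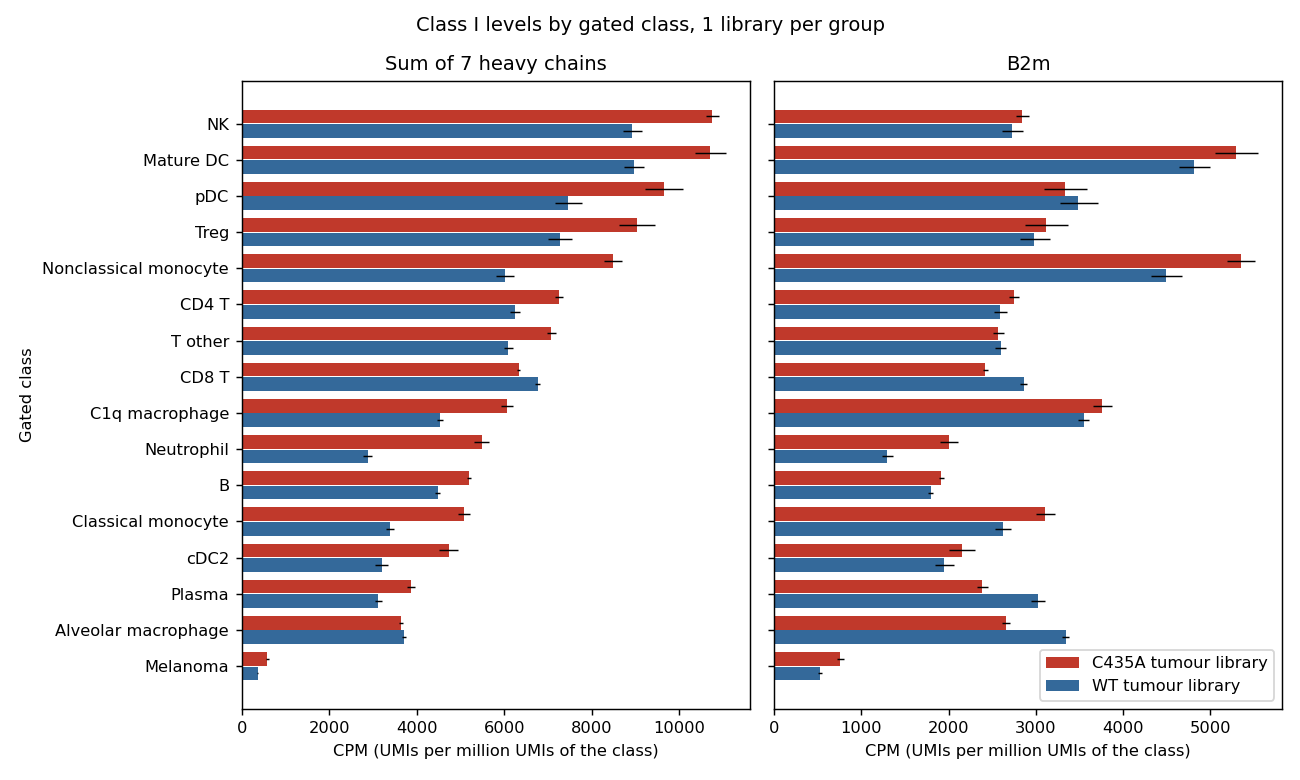
Levels of the summed 7 heavy chains and of B2m in 16 gated classes, as CPM on linear axes. Each library has 1 bar (C435A tumour above WT tumour), with a thin line for the 95% counting interval. NK cells and mature dendritic cells hold the highest heavy-chain sums, 10754 and 10708 CPM in the C435A library, and melanoma-gated cells the lowest, 586 CPM.

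Neutrophils changed place most: at 5481 CPM they were number 10 of 16 in the C435A library, and at 2876 CPM they were number 15 in the WT library, just above melanoma. Alveolar macrophages, the resident phagocytes of the air spaces, had 3641 CPM in the C435A library and 3715 CPM in the WT library and so were number 15 and number 11 in that order. B2m had another order. It was highest in nonclassical monocytes and mature dendritic cells in both libraries, at 5349 and 5294 CPM in the C435A library against 4495 and 4815 CPM in the WT library. NK cells, first or second for the heavy chains, had 2843 CPM of B2m in the C435A library and 2732 CPM in the WT library, near the middle.

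Between the libraries, class I heavy chains were higher in the C435A library in most classes, with the highest log2 ratios in neutrophils (0.93), melanoma-gated cells (0.69), classical monocytes (0.58), type 2 dendritic cells (0.57), nonclassical monocytes (0.50) and C1q macrophages (0.42), and differed little in CD8 T cells and alveolar macrophages. Ratios are log2 of C435A over WT, and a ratio was called where it reached 1.5-fold with at least 50 UMIs over both libraries. The heavy-chain sum was above 0 in 14 of 16 classes with a median log2 ratio of 0.31, and it was called in neutrophils and melanoma-gated cells. Of these 14, plasma cells turned below 0 under TMM and median ratio scaling (-0.18 under the second). Over the 8 members and 16 classes, 116 of 128 ratios had 50 UMIs or more, 25 were called higher and 0 lower. Under TMM scaling 12 of 144 ratios, sums included, changed direction, none of them a called one. Of the 27 called ratios, sums included, 24 were still at 1.5-fold or more under TMM scaling, 22 with no doublet removal, 21 with all cells weighted alike and 18 with depth strata weighted alike. With cells or depth strata weighted alike, called ratios of melanoma-gated cells turned below 0. The share of all genes called ranged over the classes between 1.94% in B cells and 39% in plasma cells for higher, and between 1.69% in plasma cells and 18.8% in CD8 T cells for lower. Both shares are given below for each class. The median log2 ratio of all tested genes was 0.49 in plasma cells and between -0.048 and 0.11 in the other 15 classes. Genes with at least 100 CPM over both libraries had medians of 0.23 in CD8 T cells and 0.21 in CD4 T cells. Of such genes, 49.9% had a higher ratio than the heavy-chain sum in CD4 T cells. In T cells outside the CD8, CD4 and regulatory gates 39% did, and in plasma cells 75.2%. The lowest shares were 0.72% in neutrophils, 0.74% in melanoma-gated cells and 1.07% in classical monocytes.

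**Figure D2:**
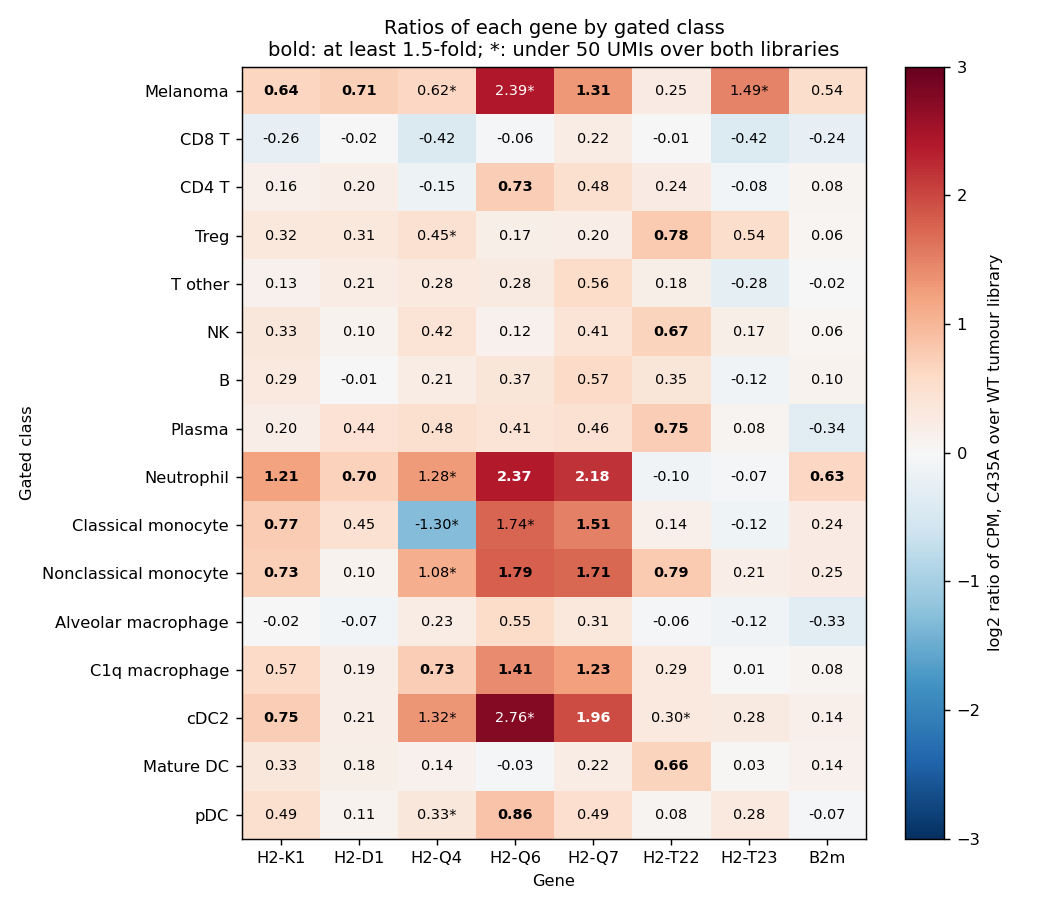
Log2 ratio of CPM, C435A over WT library, for the 8 genes (columns) in the 16 gated classes (rows), with bold numbers at 1.5-fold or more and asterisks under 50 UMIs. H2-Q7 is above 0 in all 16 classes, and the ratios in neutrophils reach 2.37 for H2-Q6.

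The classical chain H2-K1, which presents peptides to CD8 T cells, had a median log2 ratio of 0.33 over the 16 classes, was above 0 in 14 (plasma cells turned under both other scalings) and was called higher in 5. In neutrophils it had 2075 CPM in the C435A library and 899.7 CPM in the WT library, a log2 ratio of 1.21 (1.09 to 1.32). In classical monocytes it had 2305 CPM in the C435A library and 1352 CPM in the WT library, a log2 ratio of 0.77 (0.68 to 0.86). The other called classes were nonclassical monocytes (4348 CPM in the C435A library, 2628 CPM in the WT library), conventional dendritic cells of type 2 (2273 and 1353 CPM in that order) and melanoma-gated cells. Both exceptions in direction were CD8 T cells, at 2748 CPM in the C435A library and 3280.2 CPM in the WT library (log2 ratio -0.26), and alveolar macrophages, at 1830.1 CPM in the C435A library and 1854 CPM in the WT library (-0.019, -0.056 to 0.018).

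H2-D1, the other classical chain, differed less: its median log2 ratio was 0.20, and it was called higher in neutrophils and melanoma-gated cells. Neutrophils had 2799.8 CPM in the C435A library and 1727 CPM in the WT library, a log2 ratio of 0.70 (0.61 to 0.79). B cells had 1524 CPM in the C435A library and 1537 CPM in the WT library, a log2 ratio of -0.012 (-0.05 to 0.025), whereas their H2-K1 had a log2 ratio of 0.29 (0.26 to 0.32). The number of H2-D1 UMIs per H2-K1 UMI was lower in the C435A library in 11 of 16 classes. In neutrophils it was 1.35 in the C435A library and 1.92 in the WT library, and H2-D1 outnumbered H2-K1 in 3 classes of the C435A library and in 6 of the WT library. Classes with more H2-D1 than H2-K1 were all myeloid or melanoma.

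H2-Q7 and H2-Q6 encode Qa-2, a nonclassical class I molecule of which a form is held in the membrane by a lipid anchor. H2-Q7 was above 0 in all 16 classes (in 15 under median ratio scaling, where plasma cells turned), with a median log2 ratio of 0.53, and was called higher in 6, all of them myeloid or melanoma-gated. In neutrophils H2-Q7 had 345 CPM in the C435A library and 76.4 CPM in the WT library, a log2 ratio of 2.18 (1.81 to 2.55). Its level in the C435A library was 4.52-fold that in the WT library. In nonclassical monocytes H2-Q7 had 548 CPM in the C435A library and 167 CPM in the WT library, a log2 ratio of 1.71 (1.39 to 2.05). In classical monocytes it had 164 CPM in the C435A library and 57.7 CPM in the WT library (1.51, 1.11 to 1.92). These levels were under those of NK cells, which had 1638 CPM in the C435A library and 1229 CPM in the WT library, and of plasmacytoid dendritic cells, with 1596 and 1133 CPM in that order. In the C435A library B cells, at 571 CPM, and plasma cells, at 445 CPM, lay on either side of the nonclassical monocytes, whereas in the WT library both, at 386 and 324 CPM in that order, lay above them.

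The same pattern held in type 2 dendritic cells, with 338 CPM of H2-Q7 in the C435A library and 87.02 CPM in the WT library (log2 ratio 1.96, 1.49 to 2.45), and in C1q macrophages, with 373 CPM in the C435A library and 159 CPM in the WT library (1.23, 1.05 to 1.41). As a share of heavy-chain UMIs, H2-Q7 was higher in the C435A library in 14 of 16 classes. In neutrophils the share was 6.30% in the C435A library and 2.66% in the WT library, and in CD8 T cells 20.97% in the C435A library and 16.9% in the WT library. Regulatory T cells and mature dendritic cells were the exceptions in direction, at 12.7% and 9.89% in the C435A library against 13.7% and 10.1% in the WT library.

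H2-Q6 was less abundant and was called higher in 5 classes: neutrophils, nonclassical monocytes, C1q macrophages, plasmacytoid dendritic cells and CD4 T cells. Neutrophils had 88.4 CPM in the C435A library and 17.1 CPM in the WT library, a log2 ratio of 2.37 (1.61 to 3.20) that rests on 62 UMIs in the C435A library and 19 in the WT library. Nonclassical monocytes had 112 CPM in the C435A library and 32.4 CPM in the WT library. Over the 32 points of 16 classes in 2 libraries, log2 levels of H2-Q6 and H2-Q7 had a Pearson r of 0.96, and those of H2-K1 and H2-D1 of 0.91; the points share their libraries. H2-Q4, a further nonclassical chain, had at most 96.5 CPM in any class of the C435A library and 76.8 CPM in the WT library, and was called in C1q macrophages alone, at 22.96 CPM in the C435A library and 13.8 CPM in the WT library. Its lowest log2 ratio, -1.30, was in classical monocytes, at 6.93 CPM in the C435A library and 17.02 CPM in the WT library. That ratio rests on 7 and 23 UMIs in that order, too few for a call.

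Near-identical H2-Q genes can share reads, so their values were set beside the sequence they share. Of the 91-base windows in the last 500 bases of the longest transcript, 4.88% of those of H2-Q4 were found in H2-Q6, and 10.5% of those of H2-Q6 were found in H2-Q4 or in genes outside the H2 complex. For H2-T23 the share was 11.95%, all in genes outside the H2 complex, and for H2-K1, H2-D1, H2-Q7 and B2m it was 0%. In the longest coding transcript of H2-T22, 25.9% of windows were found in H2-T10, a neighbouring class I gene. For the longest coding transcript of H2-T23 the share was 12.9%, with H2-T-ps among the genes. Reads of 150 bp, the length the labels give, share less: of windows of 150 bases, 4.27% of those in the coding transcript of H2-T22 were found in H2-T10, and 0% of those of the other members were found elsewhere. Values of H2-Q4, H2-Q6, H2-T22 and H2-T23 are nonetheless uncertain. How the authors' counting treated reads that match several genes, and introns, is not given in the sources used here. H2-Q8 and H2-Q9 were not analysed here. The windows were searched in annotated transcripts only. The 0% for H2-Q7 would therefore not count a gene copy missing from the annotation, and reads shared with such a copy were not tested.

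The T region chains H2-T22 and H2-T23 differed from each other in how often they were called, in 5 classes and in 0. H2-T23 encodes Qa-1, which shows leader peptides of other class I chains to the receptor pair CD94 and NKG2A on NK and CD8 T cells. It had a median log2 ratio of 0.018. NK cells had 148 CPM in the C435A library and 131 CPM in the WT library (0.17, -0.18 to 0.53). Neutrophils had 92.7 CPM in the C435A library and 97.1 CPM in the WT library, a log2 ratio of -0.066 (-0.53 to 0.39), beside the high ratios of H2-K1 and H2-Q7 in the same cells. H2-T22 encodes a ligand of some gamma delta T cells. The classes in which it was called, all higher, include NK cells (125 CPM in the C435A library, 78.6 CPM in the WT library) and nonclassical monocytes (109 and 62.9 CPM in that order), and in neutrophils it had 38.5 CPM in the C435A library and 41.3 CPM in the WT library.

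B2m, the shared light chain, differed less than the heavy chains: its median log2 ratio was 0.084, and it was called in neutrophils only, at 2004 CPM in the C435A library and 1299 CPM in the WT library (0.63, 0.52 to 0.73). In plasma cells it had 2387 CPM in the C435A library and 3021 CPM in the WT library (-0.34), in alveolar macrophages 2657 CPM in the C435A library and 3341 CPM in the WT library (-0.33), and in CD8 T cells 2421 and 2863 CPM in that order (-0.24). Heavy-chain UMIs per B2m UMI were higher in the C435A library in all 16 classes. NK cells had 3.78 heavy-chain UMIs per B2m UMI in the C435A library and 3.27 in the WT library. Melanoma-gated cells, with 0.770 in the C435A library and 0.692 in the WT library, were the class with fewer heavy-chain than B2m UMIs in both libraries.

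Neutrophils showed the largest difference of any class. The heavy-chain sum was 5481 CPM in the C435A library and 2876 CPM in the WT library, a log2 ratio of 0.93 (0.86 to 1.00) or 1.91-fold, over 277 cells of the C435A library and 350 of the WT library. Of the 7 members with enough UMIs, 5 were called higher, beside 7.64% of genes called higher and 4.24% lower in neutrophils. Per cell, the median was 63.7 heavy-chain UMIs per 10000 UMIs in the C435A library and 32.4 in the WT library. The lower quartile in the C435A library, 43.5, lay above the median in the WT library.

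**Figure D3:**
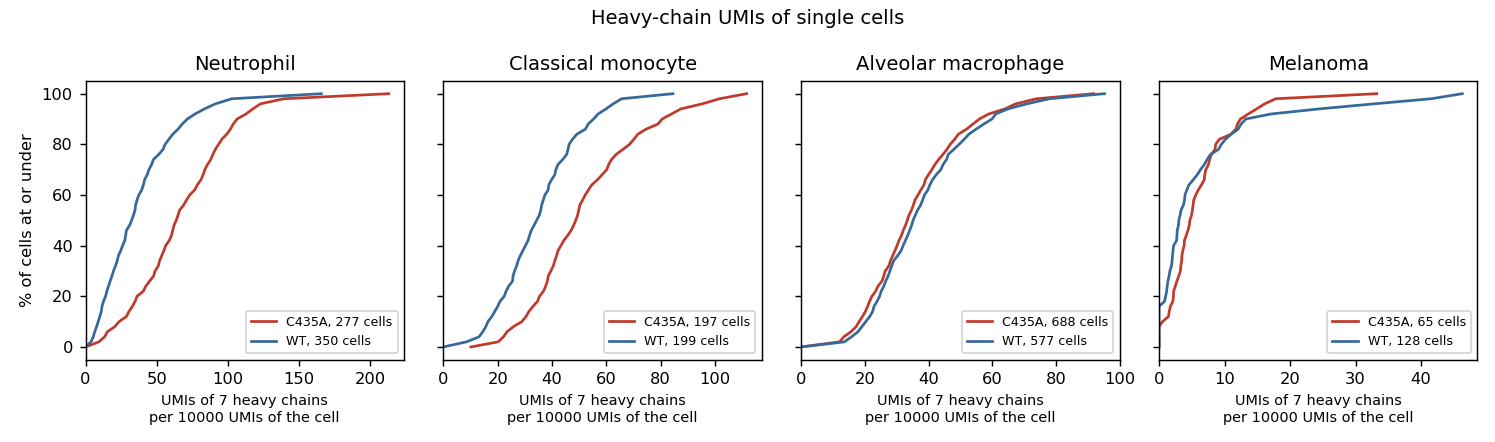
Cumulative share of cells at or under a given number of heavy-chain UMIs per 10000 UMIs of the cell, for 4 gated classes, with 1 line per library. In neutrophils the C435A line lies to the right, with medians of 63.7 and 32.4 in the C435A and WT libraries, while in alveolar macrophages the medians are 33.3 and 35.1.

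Neutrophils with transcripts of secondary granules, which mark younger cells, made up 46 of 277 in the C435A library and 100 of 350 in the WT library. Within these the heavy-chain sum was 2409 CPM in the C435A library and 1588 CPM in the WT library (0.60, 0.46 to 0.74). In the remaining cells it was 7433 CPM in the C435A library and 4491 CPM in the WT library (0.73, 0.65 to 0.81), so each group showed a smaller difference than all neutrophils together. H2-D1 had a log2 ratio of 0.44 in cells with and 0.44 in cells without granule transcripts, under the call in both, and B2m 0.11 and 0.63 in that order. H2-Q7 had 114 CPM in the C435A library and 59.8 CPM in the WT library (0.93, 0.19 to 1.66) in cells with granule transcripts. In the cells without them it had 492 CPM in the C435A library and 97.2 CPM in the WT library (2.34, 1.88 to 2.82). With each cell thinned to 1000 UMIs, 32.1% of neutrophils in the C435A library and 5.52% in the WT library had an H2-Q7 UMI, against 1.75% and 2.88% of melanoma-gated cells in that order, the class with the lowest level. Unthinned, the neutrophil shares were 45.1% in the C435A library and 15.7% in the WT library, at median depths of all cells of the class of 1700.0 and 1989.5 UMIs, and the melanoma-gated shares were 40% and 22.7% at 30444 and 32809 UMIs.

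RNA of lymphocytes, which also make H2-Q7, was measured in neutrophils by 6 lymphocyte genes, and 2 measures of it gave different directions. The summed UMIs of the 6 genes were 997 CPM in the C435A library and 1071 CPM in the WT library, a log2 ratio of -0.10 (-0.24 to 0.032). The median level of the 6 genes, a measure added after seeing the data, was 5.59% of that in T and B cells in the C435A library and 3.64% in the WT library. By the sum this RNA would bring 136 CPM of H2-Q7 in the C435A library and 79.6 CPM in the WT library, and by the median 59.8 and 27.7 CPM in that order. The measured 345 CPM in the C435A library lay above both values, and the measured 76.4 CPM in the WT library lay under that from the sum. In classical monocytes the sum allows 90.7 CPM in the C435A library and 57 CPM in the WT library and the median 35.9 and 23.5 CPM in that order, beside measured levels of 164 CPM in the C435A library and 57.7 CPM in the WT library.

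Monocytes and other myeloid cells followed neutrophils, though not in every member. In classical monocytes, the inflammatory monocytes that enter tissue, the heavy-chain sum was 5079 CPM in the C435A library and 3388 CPM in the WT library (0.58, 0.53 to 0.64), just under 1.5-fold, and 2 of 6 members were called higher beside 3.32% of genes called higher and 6.68% lower. In nonclassical monocytes, which patrol vessel walls, it was 8488 CPM in the C435A library and 6021 CPM in the WT library (0.50), and 4 of 7 members were called beside 7.46% of genes called higher and 6.36% lower. C1q macrophages had 6063 CPM in the C435A library and 4538 CPM in the WT library (0.42), with 3 of 8 members called beside 7.32% of genes called higher and 5.72% lower. The 3 called were H2-Q4, H2-Q6 and H2-Q7. The 6 lymphocyte genes summed to 6283 CPM in C1q macrophages of the C435A library and 940 CPM in those of the WT library (2.74), and 1 cell held 6881 of the 7329 Igkc UMIs of the class in the C435A library. By that sum lymphocyte RNA would bring 856 CPM of H2-Q7 in the C435A library, more than the 373 CPM measured, and 69.8 CPM in the WT library, and by the median of the genes 118 and 64.9 CPM in that order. Without the cell richest in Igkc in each library the heavy-chain log2 ratio was 0.42 and that of H2-Q7 was 1.21 (1.03 to 1.39), and the part of lymphocyte RNA in the remaining cells was not tested. Type 2 dendritic cells, 43 in the C435A library and 57 in the WT library, had 2 of 5 members called beside 8.31% of genes called higher and 10.6% lower. Alveolar macrophages stood apart, with 0 of 8 members called beside 8.04% of genes called higher and 3.07% lower, and a heavy-chain log2 ratio of -0.029 (-0.055 to -0.0026).

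In each lymphocyte class, and in mature and plasmacytoid dendritic cells, at most 1 member was called. B cells had 5194 CPM of heavy chains in the C435A library and 4477 CPM in the WT library (0.21, 0.19 to 0.24), with 0 of 8 members called beside 1.94% of genes called higher and 3.16% lower. NK cells, of which there were 818 in the C435A library and 305 in the WT library, had 1 of 8 members called beside 4.58% of genes called higher and 4.66% lower. Regulatory T cells had 1 of 7 called beside 6.52% of genes called higher and 7.61% lower. In both classes it was H2-T22. T cells outside the CD8, CD4 and regulatory gates had 0 of 8 called beside 12.4% of genes called higher and 7.35% lower. In plasma cells 1 of 8 was called beside 39% of genes called higher and 1.69% lower, and the heavy-chain ratio of 0.31 lay under the median of all genes there. Mature dendritic cells had 1 of 8 called beside 7.73% of genes called higher and 8.6% lower, and plasmacytoid dendritic cells 1 of 7 beside 4.21% of genes called higher and 6.47% lower. The heavy-chain sum of plasmacytoid dendritic cells was 9642 CPM in the C435A library and 7462 CPM in the WT library. That of regulatory T cells was 9034 and 7269 CPM in that order.

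In CD8 T cells the heavy-chain sum was 6329.8 CPM in the C435A library and 6764 CPM in the WT library, a log2 ratio of -0.096 (-0.11 to -0.079) that was 0.051 under TMM scaling. No member was called in either direction, beside 18.1% of genes called higher and 18.8% lower. The states of these cells differed between the libraries: cycling cells were 42.9% of CD8 T cells in the C435A library and 3.20% in the WT library, and naive-marker cells 29.6% and 79.5% in that order. They numbered 962 cycling, 553 effector-marker and 663 naive-marker cells in the C435A library and 62, 233 and 1541 in the WT library. Within naive-marker cells the heavy-chain sum was 7374 CPM in the C435A library and 6529 CPM in the WT library (0.18, 0.15 to 0.20). Within effector-marker cells it was 8176 CPM in the C435A library and 8784 CPM in the WT library (-0.10, -0.14 to -0.062). Within cycling cells it was 5633 CPM in the C435A library and 5895 CPM in the WT library (-0.066, -0.12 to -0.015), the lowest level of the 3 states in each library. The direction thus differed between the states of CD8 T cells. With the states given the same weight in both libraries, the log2 ratio of CD8 T cells was 0.063. It was also above 0 with all cells weighted alike (0.047) and with depth strata weighted alike (0.18). The part of cell state in the ratio was not tested.

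**Figure D4:**
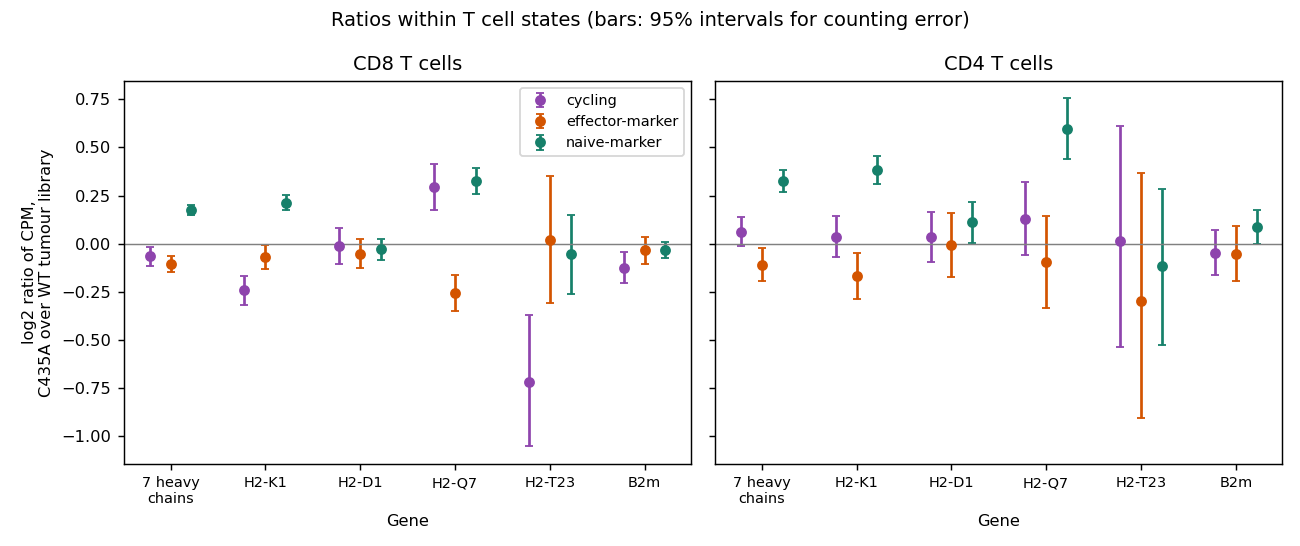
Log2 ratio of CPM, C435A over WT library, for the summed 7 heavy chains and 5 genes within cycling, effector-marker and naive-marker CD8 and CD4 T cells, with bars for the 95% counting interval. Naive-marker cells lie above 0 for the heavy-chain sum in both lineages (0.18 in CD8 and 0.33 in CD4 cells), and H2-T23 lies below 0 in cycling CD8 cells.

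H2-T23 was the member called lower within a state: cycling CD8 T cells had 85.5 CPM in the C435A library and 141 CPM in the WT library (-0.72, -1.05 to -0.37), beside 11.2% of genes called higher and 13.7% lower, from 809 UMIs in the C435A library and 80 in the WT library. In effector-marker CD8 T cells no member was called, beside 6.47% of genes called higher and 8.88% lower, nor in naive-marker cells, beside 3.1% of genes called higher and 4.12% lower. H2-Q7 had a log2 ratio of 0.33 in naive-marker, 0.29 in cycling and -0.26 in effector-marker CD8 T cells. In CD4 T cells as a whole, 1 of 8 members, H2-Q6, was called higher (0.73, 0.46 to 1.01) beside 17.6% of genes called higher and 9.82% lower. Cycling cells were 29.5% of CD4 T cells in the C435A library and 4.78% in the WT library. Naive-marker cells were 26.6% and 74.7% in that order. There were 232 cycling and 236 effector-marker CD4 T cells in the C435A library, and 31 and 47 in the WT library. With the states weighted alike the H2-Q6 ratio was 0.48, under the call. Naive-marker CD4 T cells had 969 CPM of H2-Q7 in the C435A library and 640.1 CPM in the WT library (0.60, 0.44 to 0.75), and H2-Q7 and H2-Q6 were called there beside 6.91% of genes called higher and 5.76% lower. The heavy-chain sum of CD4 T cells had a log2 ratio of 0.33 in naive-marker, 0.063 in cycling and -0.11 in effector-marker cells. In cycling CD4 T cells H2-Q4 and H2-Q6 were called higher beside 13.7% of genes called higher and 7.05% lower, each with an interval that held 0, and in effector-marker cells no member was called, beside 15.3% of genes called higher and 9.98% lower.

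As a share of all UMIs, melanoma-gated cells had by far the least class I RNA of the 16 classes, and more in the C435A library. Counted per cell they were not lowest. The median melanoma-gated cell held 14 heavy-chain UMIs in the C435A library and 9.5 in the WT library, and the median neutrophil, at less depth, 12 and 7. The heavy-chain sum of melanoma-gated cells was 586 CPM in the C435A library, from 1246 UMIs, and 362 CPM in the WT library, from 1688 UMIs. Its log2 ratio was 0.69 (0.59 to 0.80), or 1.62-fold. H2-K1 had 239 CPM in the C435A library and 153 CPM in the WT library (0.64, 0.47 to 0.81). H2-D1 had 271 CPM in the C435A library and 166 CPM in the WT library (0.71, 0.55 to 0.87). H2-Q7 had 28.2 CPM in the C435A library and 11.4 CPM in the WT library (1.31, 0.75 to 1.87), from 60 and 53 UMIs. These 3 of 5 members with enough UMIs were called higher, beside 4.4% of genes called higher and 4.41% lower. B2m had 760.5 CPM in the C435A library and 524 CPM in the WT library (0.54, 0.45 to 0.63), under the call. H2-Q4, H2-Q6 and H2-T23 had fewer than 50 UMIs over both libraries.

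The melanoma difference rested on deep cells. The 48 cells of the C435A library and 79 of the WT library with at least 5000 UMIs had 587 CPM in the C435A library and 353 CPM in the WT library (0.73, 0.63 to 0.84). The 17 and 49 shallower cells had 498 CPM in the C435A library from 14 UMIs and 946 CPM in the WT library from 72 UMIs, the other direction (-0.93, -1.87 to -0.087). With all cells weighted alike the log2 ratio of the heavy-chain sum was -0.076 and those of H2-D1 and H2-Q7 were -0.12 and -0.57, although the median cell had 4.71 heavy-chain UMIs per 10000 in the C435A library and 3.02 in the WT library.

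RNA of immune cells was present in the melanoma-gated cells as well, more of it in the C435A library. For 17 genes known from immune cells, the level was a median of 3.68% of that in all other gated cells in the C435A library and 2.06% in the WT library. Ptprc, 1 of the 17, had a UMI in 32 of 65 melanoma-gated cells of the C435A library and 42 of 128 of the WT library. The heavy-chain sum was at 9.79% in the C435A library and 7.22% in the WT library, and B2m at 29.9% and 18.9% in that order. H2-Q7 was near the immune genes, at 3.26% in the C435A library and 2.28% in the WT library, whereas H2-T22 was at 31.7% and 33.99%. Subtracting immune RNA at the median share left 366 CPM of heavy chains in the C435A library and 259 CPM in the WT library (0.50). By gene, it left H2-K1 with a log2 ratio of 0.38, under the call, and H2-D1 with 0.64. Of H2-Q7 it left -3.61 CPM in the C435A library and 1.08 CPM in the WT library, so the H2-Q7 call was not kept. Subtracting immune RNA by the summed UMIs of the 17 genes left 171 CPM of heavy chains in the C435A library and 229.8 CPM in the WT library (-0.43), which turns the direction. Subtracting it by the sum without Igkc and Arhgdib, a setting chosen after seeing the data, left 404 CPM in the C435A library and 262 CPM in the WT library (0.62). Arhgdib, at 33.6% of its level in the other cells in the C435A library and 39.4% in the WT library, stood above the other genes. The sum of all 17 is led by Igkc, an antibody chain, and 1 melanoma-gated cell of the C435A library held 2574 of the 3599 Igkc UMIs of the class there. Without the cell richest in Igkc in each library the unsubtracted log2 ratio was 0.72. The part of carried-over immune RNA in the difference between the libraries was not settled by these subtractions.

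**Figure D5:**
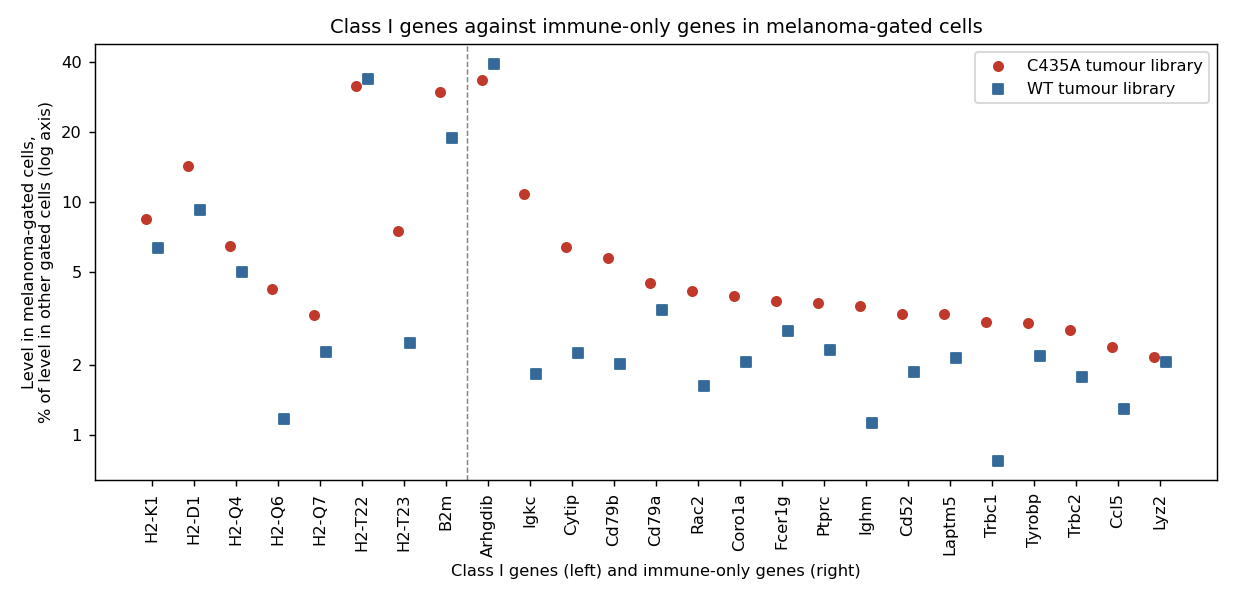
Level in melanoma-gated cells as a percent of the level in all other gated cells of the same library, on a log axis, for the class I genes (left) and for 17 immune-only genes (right), with 1 point per library. B2m (29.9% in the C435A library, 18.9% in the WT library) and H2-T22 lie above most immune-only genes, and H2-Q7 among them.

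Other genes of the class I pathway were counted from lists. In melanoma-gated cells 3 of 12 genes of peptide supply and loading were called higher and 0 lower, beside 4.4% of all genes called higher and 4.41% lower. Psmb8, a subunit of the immunoproteasome, which cuts proteins into peptides fit for class I, had 31.02 CPM in the C435A library and 8.59 CPM in the WT library (1.85). Psmb9, another such subunit, had 24.4 CPM in the C435A library and 9.66 CPM in the WT library (1.34), and Tap2, a subunit of the peptide pump, had a ratio of 0.62 with an interval that held 0. Of 10 regulators 1 was called, Rfx5 (0.66), a factor that binds class I promoters, and its interval held 0. Of 3 other class I and class I-like genes 0 were called. These genes are also made by immune cells, and their part in immune RNA carried over was not tested.

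In CD8 T cells 4 of 14 regulators were lower and 0 higher. Socs1, an inhibitor of cytokine signalling, had 21.6 CPM in the C435A library and 61.04 CPM in the WT library (-1.50). Irf9 (-0.80) and Irf7 (-0.72), both interferon response factors, were lower as well. Of 13 genes of peptide supply and loading 2 were higher: Pdia3, a chaperone of the loading complex, had 373 CPM in the C435A library and 199 CPM in the WT library (0.91), and Psmb9 had a ratio of 0.59. Among 8 class I receptors 5 were higher and 3 lower, with Klrc1, which encodes the NKG2A chain that reads Qa-1, at 82.8 CPM in the C435A library and 26.1 CPM in the WT library (1.67), and Cd160 at 97 CPM in the C435A library and 33.3 CPM in the WT library (1.54). Klra3 (1.39) and Klra1 (-2.11), of the Ly49 family of class I receptors, lay on either side. Of 9 other class I and class I-like genes, 2 were higher, with H2-Q10 at 57.02 CPM in the C435A library and 13.9 CPM in the WT library (2.04) and Fcgrt, the neonatal antibody receptor, at 0.76, and 3 were lower, among them H2-K2 (-0.79) and H2-T24 (-0.93). These counts stand beside a background of 18.1% higher and 18.8% lower and beside the shift in cell states, whose part in them was not tested. In B cells 1 receptor gene, Klrd1, was higher and H2-T24 was lower, each at under 10 CPM in both libraries, beside 1.94% of all genes called higher and 3.16% lower.

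Across the 32 class-by-library points, the levels most like the heavy-chain sum among 300 genes with at least 100 CPM in every point were those of Tmsb4x, with a Pearson r of 0.79, Sh3bgrl3 (0.75), Itm2b (0.65), Clic1 (0.64) and Fau (0.64). Tmsb4x encodes thymosin beta 4, which binds actin. The points share 2 libraries and so are not independent. Among the members themselves, H2-Q4 and B2m were least alike, with an r of 0.53.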

How the data were processed

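The values are counts of UMIs per gene and barcode, as the authors deposited them; they were made with Cell Ranger 7.2.0 per the file headers and with build GRCm38 per the submitters' processing notes. The labels' protocols name 2 capture systems, 10x Chromium 3′ V3 and BD Rhapsody, and which was used is not clear from them. The sources used here do not give the annotation release, the intron setting or the treatment of reads that match several genes. Other deposited text tables were not used.

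Barcodes under 200 genes or 500 UMIs, or over 20% mitochondrial UMIs, were dropped: 102 in the C435A library and 157 in the WT library. The highest Scrublet scores, 0.8% per 1000 barcodes, were then removed as doublets, 844 and 800 in that order. A cell was gated by at least 2 distinct markers of its lineage, 3 for melanoma, with every other lineage at no more than 1 UMI per 3 of its own; 447 and 451 cells had mixed markers and 344 and 305 too few. Classes with fewer than 30 cells in either library, here type 1 dendritic cells, were not compared. UMIs were summed per class and library and divided by the class total to give CPM. Levels have exact Poisson intervals, ratios exact conditional intervals and shares Clopper-Pearson intervals. The ratio script was tested on simulated data.

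All members were named in every class. Other genes were named where past 1.5-fold in melanoma, CD8 T or B cells with at least 50 UMIs, at most 4 per list and class, as were the 5 genes most like the heavy-chain sum. Of the genes this rule names, 1 is not reported here. Members and lists were chosen with earlier results of these data known. Protein sequences were not used here. Other scalings, gates, filters and cell weights were tried, and those by depth, granule markers, summed free RNA and single cells, the lymphocyte RNA measure, and the shorter and longer motifs were chosen after seeing the data. Tools were Python 3.11.15, numpy 2.4.6, scipy 1.17.1, pandas 2.3.3, scanpy 1.11.5, matplotlib 3.10.9, R 4.3.3 and edgeR 4.0.16, the last for TMM factors only.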

Additional observations from a re-analysis of the deposited data

Results flagged for a closer look

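The heavy-chain sum had a log2 ratio below 0 in CD8 T cells (-0.096) and alveolar macrophages (-0.029) while it was above 0 in neutrophils; the difference between classes was not tested, since each group is 1 library. Cells outside every gate, which no comparison used, held 5706 CPM of heavy chains in the C435A library (791 cells) and 4767 CPM in the WT library (756 cells).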

How the results depend on the processing

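No paired analysis was possible because each group is 1 library and the labels carry no replicate numbers. The counts of classes with a heavy-chain sum or H2-Q7 above 0 (14 and 16 of 16) stayed within 13 to 14 and 15 to 16 under every setting run over all 16 classes. The classes behind the count for the sum changed. Under TMM scaling plasma cells turned below 0 and CD8 T cells above 0. With cells or depth strata weighted alike, melanoma-gated cells turned below 0 and CD8 T cells above 0. The neutrophil heavy-chain log2 ratio stayed above 0 under all settings run: 0.83 under TMM scaling, 0.82 under median ratio scaling, 0.86 with cells weighted alike, 0.80 with depth strata weighted alike and 0.72 with granule groups weighted alike. In CD8 T cells it turned above 0: 0.051 under TMM, 0.047 with cells weighted alike, 0.063 with T states weighted alike and 0.18 with depth strata weighted alike. The melanoma heavy-chain sum was 0.53 with no doublet removal and 0.50 with free RNA subtracted at the median, and reversed to -0.076 with cells weighted alike, -0.026 with depth strata weighted alike and -0.43 with free RNA subtracted by the sum of 17 genes. In melanoma-gated cells H2-D1 became -0.12 with cells and -0.10 with depth strata weighted alike, H2-Q7 -0.57 and -0.67 in that order, and H2-K1 -1.08 with free RNA subtracted by the sum of 17 genes; the cause was not tested. The depth strata, granule groups and the sum of 17 genes were chosen after seeing the data. At a filter of 200 UMIs, the share of all genes called ranged over classes and directions from 0% to 38.7%. Depth limits the rarer chains: 12 of 128 ratios rest on fewer than 50 UMIs.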
